A study of Mus musculus with 8 samples.

Results

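Biliary and keratin epithelial genes were followed through stellate cell activation as 7 genes taken by symbol, Krt7, Krt8, Krt18, Krt19, Epcam, Sox9 and Cdh1, all 7 of which were among the 22180 genes measured. Each gene was represented by its probe set of highest mean over all arrays, and the choice used no difference between groups. RNA came from primary hepatic stellate cells of BALB/c mice, an inbred strain, on 8 arrays in 4 groups of 2. Cultured cells (in vitro activated, d10) had spent 10 days on plastic. In vivo activated cells came, without seeding, from mice with fibrosis caused by carbon tetrachloride (CCl4), a hepatotoxin, given for 2 weeks or for 4 weeks. Quiescent cells came from healthy mice at 0 hours and were never seeded. The labels give no age, sex or purity of the cells, and do not show that the arrays of a group were separate preparations, so each p-value reflects the spread between the samples at hand, possibly technical. The treatment text common to every sample mentions 2.5 mM valproic acid after seeding, and the labels do not show whether it was given to the cultured cells.

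Keratins are the intermediate filament proteins of epithelia and assemble as pairs of a type II and a type I chain. Hepatocytes carry the pair Krt8 and Krt18, while bile duct cells (cholangiocytes) and mesothelial cells add Krt7 and Krt19. Epcam is a surface adhesion molecule of bile duct and progenitor cells, Cdh1 encodes E-cadherin of the adherens junction, and Sox9 is a transcription factor of bile duct cells that has also been described in activated stellate cells. Stellate cells are mesenchymal, with vimentin and desmin filaments, so a level of these genes can come from the stellate cells or from other liver cells in a preparation.

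Levels are the deposited log2 RMA values (log2 units), and differences are log2 differences ± standard error (SE). The test is limma's, adjusted over all genes by Benjamini-Hochberg, with an adjusted p under 0.05 as the threshold. The table has no detection calls. As a guide to background, 1394 olfactory and vomeronasal receptor genes had a 95th percentile of 4.69 log2 units. Where every array of 1 group in a comparison lay at or under that guide, the fold is given as a bound, the other group's mean set against the guide. Array medians over all probe sets ran from 4.63 to 4.72. All 15 stellate cell markers examined stood above that guide on at least 1 array. Their median was 7.21 and 6.56 in culture, 9.75 and 9.78 at 2 weeks of CCl4, 10.08 and 10.05 at 4 weeks, and 10.38 and 10.52 in quiescent cells. The biliary identity was weaker: Epcam stayed under the guide on all 8 arrays, and so did 11 of 21 other biliary genes, including Cftr, Sctr, Tspan8, Elf3 and Pkhd1. The 7 genes are therefore named by symbol below and not taken as a bile duct signal.

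Cultured cells had lower Krt8, Krt18, Cdh1 and Sox9 and higher Krt19 than quiescent cells. At 4 weeks of CCl4 Krt8 and Krt18 were lower, and at 2 weeks no member passed the threshold. In culture against quiescent cells 4 of 7 members fell and 1 rose, beside 10.3% of all genes called lower and 12.9% called higher. At 4 weeks 2 of 7 fell and 0 rose, beside 4.67% called lower and 4.04% called higher. At 2 weeks 0 of 7 were called in limma, beside 4.77% of all genes called in either direction. Before adjustment 2 of 7 had a limma p under 0.05, and the matching share of all genes is not given. The median difference of the 7 members was -0.54 in culture, -0.14 at 2 weeks and -0.11 at 4 weeks, with 0.01, 0.00 and 0.00 over all genes. These comparisons share the quiescent arrays. The same shares of all genes stand beside the counts of the other gene lists below.

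**Figure D1:**
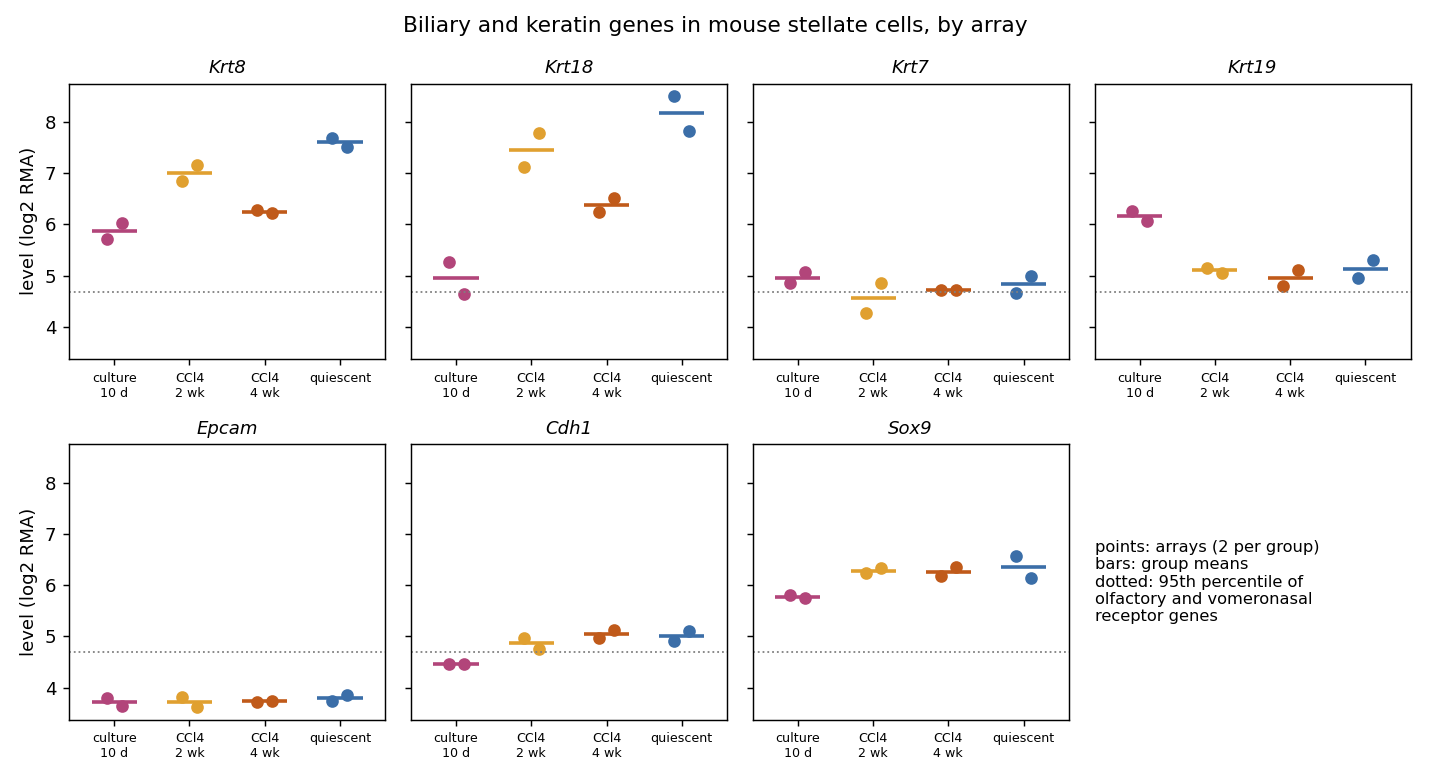
Levels of the 7 genes (log2 RMA, y axis) on each array, by group; points are arrays, 2 per group, bars are group means and the dotted line is the receptor gene 95th percentile at 4.69. Krt8 and Krt18 are lowest in culture, Krt19 is highest in culture at 6.27 and 6.07, and Epcam lies under the line throughout.

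Krt8, the type II keratin of simple epithelia, stood at 5.72 and 6.02 log2 units in culture, 6.85 and 7.15 after 2 weeks of CCl4, 6.28 and 6.22 after 4 weeks, and 7.69 and 7.51 in quiescent cells. The 4 groups did not overlap, and from lowest to highest they ran culture, 4 weeks, 2 weeks and quiescent. The fall was 3.32-fold in culture (-1.73 ± 0.17, adjusted p = 0.000112) and 2.55-fold at 4 weeks (-1.35 ± 0.17, adjusted p = 0.00191). At 2 weeks the difference was -0.60 ± 0.17 (adjusted p = 0.0893).

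Krt18, the type I partner of Krt8, stood at 5.27 and 4.65 in culture, 7.11 and 7.79 after 2 weeks of CCl4, 6.24 and 6.52 after 4 weeks, and 8.50 and 7.83 in quiescent cells. The order of the groups was that of Krt8, and neighbouring groups did not overlap, although the lower quiescent array and the higher 2-week array were close. Krt18 had the largest change of the 7 genes, a 9.25-fold fall in culture (-3.21 ± 0.31, adjusted p = 0.000107), which took one of the cultured arrays under the background guide. It fell 3.44-fold at 4 weeks (-1.78 ± 0.31, adjusted p = 0.00875). The 2-week difference was -0.72 ± 0.31 (adjusted p = 0.28). Without 4-week replicate 1 the 4-week fall of Krt18 was -1.64 and was not called (adjusted p = 0.0853).

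A dimmer Krt18 probe set went the same way. It stood at 3.93 and 4.18 in culture, 6.09 and 7.33 after 2 weeks of CCl4, 5.61 and 5.43 after 4 weeks, and 7.82 and 7.66 in quiescent cells. Both cultured arrays of that probe set lay under the background guide, so its fall in culture was at least 8.29-fold (adjusted p = 8.84e-05 in a limma fit over all probe sets with a single symbol). At 4 weeks it fell by 2.22 ± 0.33 on the log2 scale (adjusted p = 0.00501 in the same fit).

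Between the CCl4 times the keratin pair was lower at 4 than at 2 weeks without passing the threshold. The difference was -0.75 ± 0.17 for Krt8 (adjusted p = 0.191) and -1.07 ± 0.31 for Krt18 (adjusted p = 0.335), in a comparison that called 0.0857% of all genes. The 95% intervals, -1.13 to -0.38 and -1.76 to -0.37, lay below 0. Set against the CCl4 times together, cultured cells had 4 of 7 members lower and 1 higher, beside 8.72% and 12.6% of all genes. Krt8 and Krt18 were lower in culture than over the CCl4 times, Krt8 by -0.76 ± 0.14 (adjusted p = 0.00538) and Krt18 by -1.96 ± 0.27 (adjusted p = 0.00087). Krt8 was not called there without culture replicate 1 (-0.61, adjusted p = 0.0653).

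Krt8 and Krt18 are neighbouring protein-coding genes on mouse chromosome 15, by the RefSeq gene table of GRCm38.p6. Because they moved together, the 250 bases before each RefSeq start site are shown, 5′ to 3′ on the strand of the gene. The Krt8 window is chr15:102004343-102004592 on the minus strand and the Krt18 window chr15:102027966-102028215 on the plus strand. Capitals mark the E-box CACCTG, the letters that SNAI repressors of Cdh1 are known to bind.
Krt8: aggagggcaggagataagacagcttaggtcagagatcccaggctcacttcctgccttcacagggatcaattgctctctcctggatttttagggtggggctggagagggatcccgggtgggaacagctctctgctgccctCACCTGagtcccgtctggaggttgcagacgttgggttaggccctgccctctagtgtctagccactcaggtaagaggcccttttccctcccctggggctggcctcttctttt
Krt18: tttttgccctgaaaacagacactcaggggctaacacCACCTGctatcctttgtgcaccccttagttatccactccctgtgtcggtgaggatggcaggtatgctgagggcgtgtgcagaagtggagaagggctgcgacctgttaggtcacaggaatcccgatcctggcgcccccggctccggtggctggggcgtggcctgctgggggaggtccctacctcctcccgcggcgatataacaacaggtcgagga

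The 5 motifs searched, by their letters on both strands of such windows, were TEAD (GGAATG), the SNAI E-box (CACCTG), AP-1 (TGANTCA), the GC box (GGGCGG) and the core promoter element TATAAA. The windows of Krt8 and Krt18 each held 1 E-box and 0 matches to the other motifs. Among the other members with a window, Krt7 held 1 E-box and 4 GC boxes, and Epcam 2 E-boxes and 1 GC box. Krt19, Sox9 and Cdh1 were not in the table. The E-box was in 17.2% of the 32851 windows of all genes, TEAD in 12.6%, AP-1 in 6.75%, the GC box in 32.7% and the core element in 12.4%. In these windows the matching letters do not overlap one another, and a match is a description of the letters only.

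Hepatocyte markers moved beside the pair. Summed over 21 measured markers, their level (log2 of summed linear values) was 9.49 and 9.49 in culture, 13.14 and 13.77 at 2 weeks, 12.25 and 11.95 at 4 weeks and 15.22 and 14.38 in quiescent cells. The order of the groups was that of Krt8 and Krt18. It was not particular to hepatocyte markers. The summed sinusoidal endothelial markers ran in the same order. Their sum was 11.28 and 11.21 in culture, 12.18 and 12.43 at 2 weeks, 11.89 and 12.12 at 4 weeks and 14.0 and 13.34 in quiescent cells. The part of endothelial markers in the keratin differences was not tested either. Within the quiescent pair the array with more hepatocyte signal also had more Krt8 and Krt18, and likewise within the 2-week pair. Within the 4-week pair the brighter Krt18 probe set went the other way, at 6.24 and 6.52. Krt8, at 6.28 and 6.22, and the dimmer Krt18 probe set, at 5.61 and 5.43, did not. In culture the hepatocyte sums were equal, while Krt8 stood at 5.72 and 6.02 and Krt18 at 5.27 and 4.65. These differences between single arrays were not tested.

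Of the 21 hepatocyte markers 17 fell and 0 rose in culture, 8 fell at 2 weeks and 17 at 4 weeks, with medians of -5.54, -0.94 and -2.30. Alb, serum albumin, fell in culture to 4.42 and 4.17, under the guide, against 11.90 and 11.63 in quiescent cells. It stood at 10.68 and 11.12 at 2 weeks and at 9.57 and 9.23 at 4 weeks. The part of these markers in the keratin differences was not tested, and in bulk RNA fewer cells of a type and less RNA per cell cannot be told apart. On the cultured arrays 10 and 9 of the 21 hepatocyte markers lay above the guide, and 11 and 12 at or under it. Both cultured arrays had Krt8 above the guide, while Krt18 stood at 5.27 and 4.65.

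**Figure D2:**
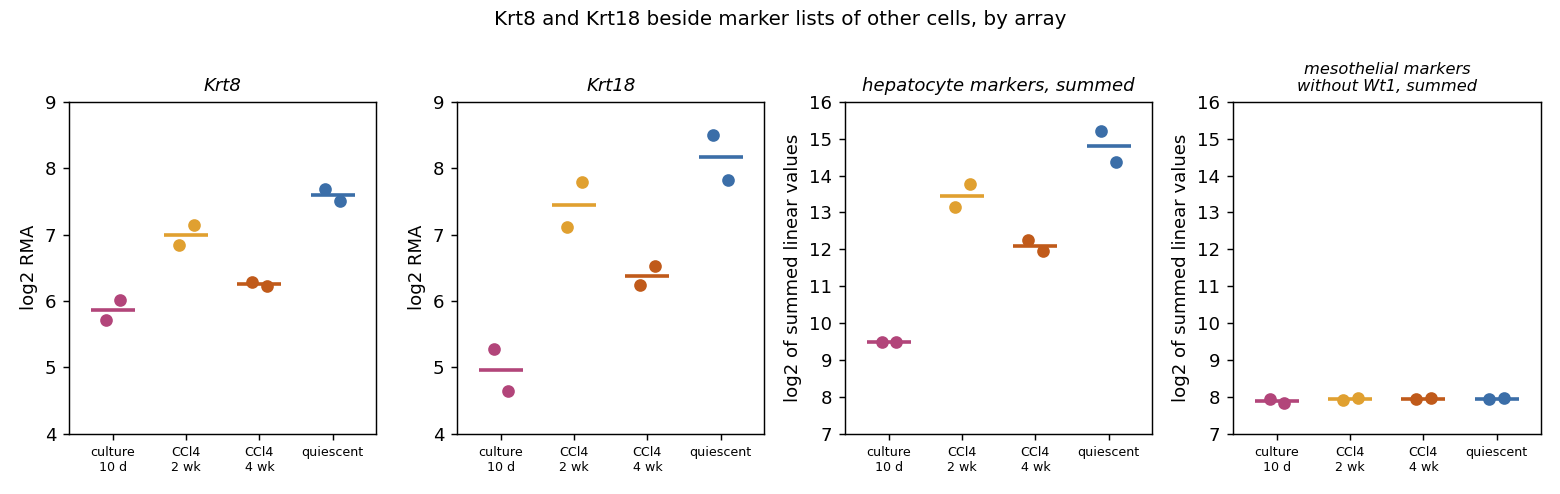
Krt8 and Krt18 levels (log2 RMA, left panels) beside the summed level of hepatocyte and mesothelial markers other than Wt1 (log2 of summed linear values, right panels) on each array; points are arrays, bars are group means, and the y axes do not start at 0. Hepatocyte markers run in the group order of the keratin pair, from 9.49 in culture to 15.22 in a quiescent array. Sinusoidal endothelial markers, not drawn, ran in the same order. The mesothelial sum lies between 7.84 and 7.98 on all arrays. On each array 6 or 7 of the 11 mesothelial markers were at or under the background guide.

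Krt19, a type I keratin of bile duct and mesothelial cells, stood at 6.27 and 6.07 in culture, 5.16 and 5.05 after 2 weeks of CCl4, 4.80 and 5.12 after 4 weeks, and 4.95 and 5.31 in quiescent cells. The cultured arrays lay above the other 6, which overlapped. Krt19 rose 2.05-fold in culture (1.04 ± 0.18, adjusted p = 0.00276), and was 2.20-fold higher in culture than over the CCl4 times (1.14 ± 0.15, adjusted p = 0.000867). The difference was -0.03 ± 0.18 at 2 weeks (adjusted p = 0.971) and -0.17 ± 0.18 at 4 weeks (adjusted p = 0.707). Their 95% intervals, -0.43 to 0.38 and -0.57 to 0.23, include 0.

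Krt7, the type II keratin of the same epithelia, did not go with Krt19. It stood at 4.85 and 5.08 in culture, 4.28 and 4.86 after 2 weeks of CCl4, 4.73 and 4.72 after 4 weeks, and 4.67 and 5.0 in quiescent cells. All 4 groups lay near the background guide, and the cultured, 2-week and quiescent arrays overlapped. The 4-week arrays lay within the 2-week and quiescent ranges and below both cultured arrays. The difference was 0.13 ± 0.21 in culture (adjusted p = 0.745, 95% interval -0.34 to 0.61), -0.26 ± 0.21 at 2 weeks (adjusted p = 0.624) and -0.11 ± 0.21 at 4 weeks (adjusted p = 0.861).

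Of 49 other keratin genes, 25 stayed at or under the background guide on all arrays. In culture against quiescent cells 1 rose and 0 fell, and against the CCl4 times 2 were higher and 0 lower. Krt20, a keratin of intestinal and urothelial epithelium, stood at 5.66 and 6.0 in culture, 4.08 and 3.82 after 2 weeks of CCl4, 4.14 and 3.98 after 4 weeks, and 4.00 and 3.71 in quiescent cells. It was above the guide in culture only and rose at least 2.20-fold against quiescent cells (adjusted p = 8.23e-05). Krt31, a hair keratin, was at least 1.08-fold higher in culture than over the CCl4 times (adjusted p = 0.0422). The other keratins had a median difference of 0.00 in culture, -0.03 at 2 weeks and -0.01 at 4 weeks, and 0 were called at either CCl4 time.

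No mesothelial marker was called higher in culture, where Krt19 rose. Of 11 measured, 0 rose and 1 fell in culture, and 1 rose and 0 fell at each CCl4 time. The called gene was in each case Wt1, a transcription factor of mesothelial cells that stellate cells also express (-1.31 ± 0.24 in culture, 1.78 ± 0.24 at 2 weeks and 1.54 ± 0.24 at 4 weeks). Upk1b, Lrrn4, Muc16, Pkhd1l1 and Bnc1 stayed at or under the guide on all arrays. The summed level of all 11 (log2 of summed linear values) was 8.31 and 8.16 in culture, 9.50 and 9.77 at 2 weeks, 9.53 and 9.43 at 4 weeks and 8.54 and 8.81 in quiescent cells, and its differences between groups were those of Wt1. Without Wt1, left out after its values were seen, the sum of the other 10 was 7.94 and 7.84 in culture, 7.91 and 7.98 at 2 weeks, 7.94 and 7.97 at 4 weeks and 7.94 and 7.96 in quiescent cells. On each array only 4 or 5 of the 11 lay above the guide, so this sum holds many values near background and could miss a small rise. The part of mesothelial cells in the level of Krt19 was not tested.

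Epcam stood at 3.8 and 3.64 in culture, 3.82 and 3.62 after 2 weeks of CCl4, 3.73 and 3.75 after 4 weeks, and 3.75 and 3.85 in quiescent cells. All 8 values lay within the range of the receptor genes, and the groups overlapped. The differences were -0.08 ± 0.14 in culture, -0.08 ± 0.14 at 2 weeks and -0.06 ± 0.14 at 4 weeks (adjusted p 0.779, 0.869 and 0.898).

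Cdh1 stood at 4.46 and 4.47 in culture, 4.97 and 4.76 after 2 weeks of CCl4, 4.97 and 5.13 after 4 weeks, and 4.91 and 5.11 in quiescent cells. The cultured arrays lay below the other 6 and under the background guide, and the other groups overlapped. The fall in culture was at least 1.25-fold (fitted difference -0.54 ± 0.15, adjusted p = 0.0268), and Cdh1 was also at least 1.20-fold lower in culture than over the CCl4 times (fitted difference -0.49 ± 0.13, adjusted p = 0.0244). The difference was -0.14 ± 0.15 at 2 weeks (adjusted p = 0.728) and 0.04 ± 0.15 at 4 weeks (adjusted p = 0.938). The call in culture was lost without quiescent replicate 2, culture replicate 1 or culture replicate 2 (adjusted p 0.122, 0.108 and 0.104). Against CCl4 it was lost without either culture array, 2-week replicate 1 or 4-week replicate 2 (adjusted p 0.127, 0.121, 0.0608 and 0.0756).

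The dimmer probe set of Cdh1 stood at 3.48 and 3.45 in culture, 4.27 and 3.97 after 2 weeks of CCl4, 4.04 and 3.72 after 4 weeks, and 4.57 and 4.66 in quiescent cells, all under the guide. The quiescent arrays were the highest and the cultured arrays the lowest, and since no group was above the guide no fold is given for it. In a limma fit over all probe sets with a single symbol, it was lower in culture (-1.15 ± 0.16, adjusted p = 0.00114). It was also called lower at 4 weeks (-0.74 ± 0.16, adjusted p = 0.0283), where the brighter probe set gave 0.04. At 2 weeks the difference was -0.50 ± 0.16 (adjusted p = 0.152). The 2 probe sets therefore differ on Cdh1 at 4 weeks.

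**Figure D3:**
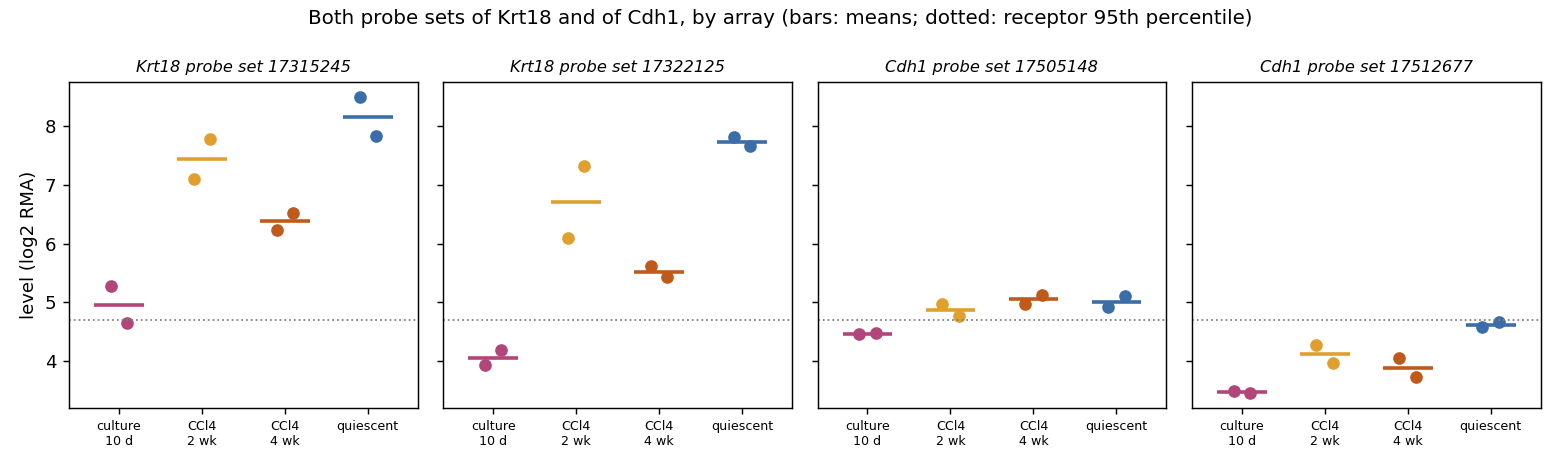
Levels (log2 RMA, y axis) of both probe sets of Krt18 and of Cdh1 on each array; points are arrays, 2 per group, bars are group means and the dotted line is the receptor gene 95th percentile. Both Krt18 probe sets are lowest in culture, and the dimmer Cdh1 probe set lies under the line on all 8 arrays.

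Of 7 transcription factors known to repress Cdh1, 0 rose and 3 fell in culture, and 0 were called at either CCl4 time in limma. Snai1 (-1.04 ± 0.22, adjusted p = 0.008), Snai2 (-1.19 ± 0.20, adjusted p = 0.00227) and Tcf4 (-1.23 ± 0.15, adjusted p = 0.000454) fell in culture. Their median difference was -0.42 in culture, -0.28 at 2 weeks and -0.29 at 4 weeks. Against the CCl4 times Twist1 was higher in culture (1.17 ± 0.26, adjusted p = 0.012).

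Sox9 stood at 5.81 and 5.74 in culture, 6.23 and 6.34 after 2 weeks of CCl4, 6.18 and 6.35 after 4 weeks, and 6.57 and 6.14 in quiescent cells. The cultured arrays lay below the other 6, which overlapped, and all 8 were above the background guide. Sox9 fell 1.49-fold in culture (-0.58 ± 0.17, adjusted p = 0.0373) and was lower in culture than over the CCl4 times (-0.50 ± 0.15, adjusted p = 0.0411). No rise was measured after CCl4, with -0.07 ± 0.17 at 2 weeks (adjusted p = 0.904, 95% interval -0.46 to 0.31) and -0.09 ± 0.17 at 4 weeks (adjusted p = 0.858, 95% interval -0.47 to 0.29). The call in culture held in 1 of 8 fits that left out 1 array, the one without quiescent replicate 2 (adjusted p 0.011, and 0.0545 to 0.204 in the other 7). With the replicate number as a block it was also lost (replicate block, -0.58, adjusted p = 0.0522), as was that against CCl4 (-0.50, adjusted p = 0.0573). Against CCl4 it held in 2 of 8 such fits, without either quiescent array (adjusted p 0.0178 to 0.211 over the 8).

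**Figure D4:**
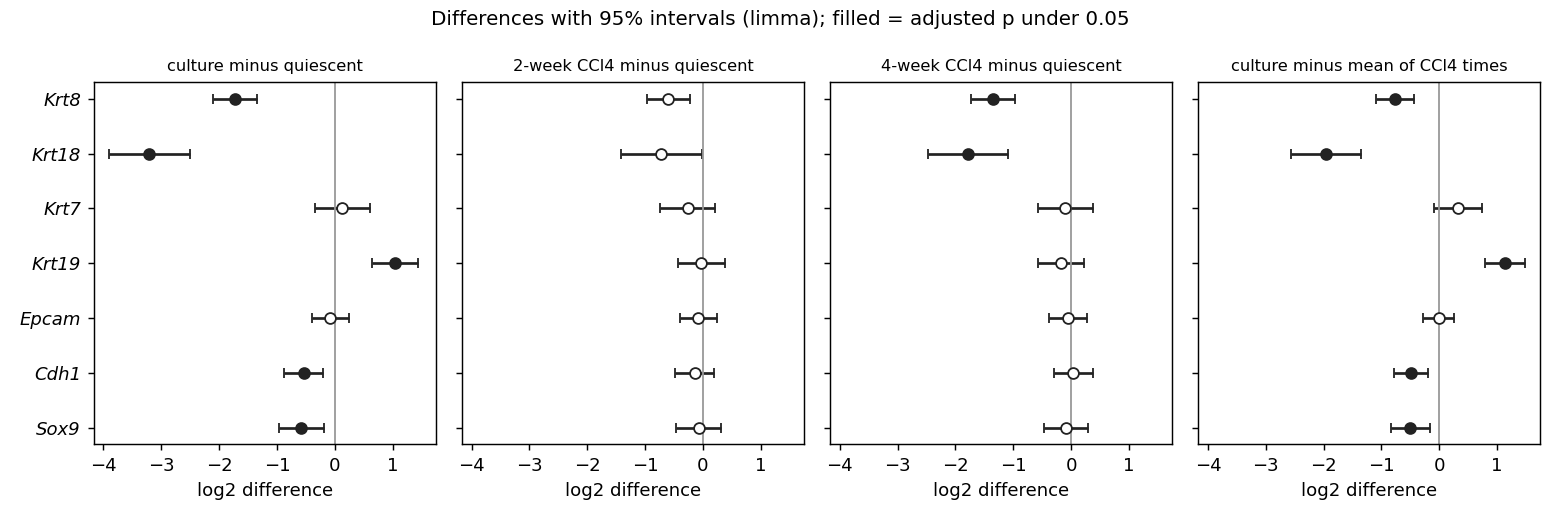
Log2 differences (x axis) of the 7 genes in 4 comparisons from limma; points are estimates, bars are 95% intervals and filled points have an adjusted p under 0.05. Krt8 and Krt18 lie left of 0 in culture and at 4 weeks of CCl4, and Krt19 lies right of 0 at 1.04 and 1.14 in both comparisons of culture.

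Of 11 other SOX factors, 4 fell and 0 rose in culture, 1 fell at 2 weeks and 2 fell at 4 weeks, with medians of -0.52, -0.38 and -0.39. Sox18, a factor of endothelial cells, fell at least 4.72-fold in culture, by 2.35 ± 0.23 on the log2 scale at 2 weeks and by 2.40 ± 0.23 at 4 weeks. Sox5 fell in culture (-1.33 ± 0.16), and Sox6 fell at least 2.06-fold. Sox4 stood at 8.67 and 8.59 in culture, 8.91 and 9.45 at 2 weeks, 8.83 and 8.44 at 4 weeks and 6.49 and 8.17 in quiescent cells, and was not called in any of these comparisons (adjusted p 0.0549 to 0.13). A dimmer probe set of Sox4 passed the threshold in cultured cells (1.35 ± 0.36, adjusted p = 0.0266) and after 2 weeks of CCl4 (1.58 ± 0.36, adjusted p = 0.0476), higher in both. The 14 sinusoidal endothelial markers moved with these, with 14 falls in culture, 8 at 2 weeks and 11 at 4 weeks and medians of -3.26, -1.54 and -2.07, and their part in the SOX differences was not tested.

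The Notch pathway, which drives bile duct specification upstream of Sox9, gave 1 rise and 5 falls among 14 genes in culture, 0 and 5 at 2 weeks, and 1 and 4 at 4 weeks. The medians were -0.41, -0.09 and -0.01. The receptor Notch1 fell in culture (-1.97 ± 0.13, adjusted p = 1.55e-05), at 2 weeks (-0.94 ± 0.13, adjusted p = 0.00642) and at 4 weeks (-0.61 ± 0.13, adjusted p = 0.0255). Its ligand Dll4 fell at least 3.14-fold in each of these comparisons. The target Heyl stood at 4.72 and 4.26 in culture, 7.94 and 8.25 at 2 weeks, 8.24 and 7.90 at 4 weeks and 7.38 and 8.38 in quiescent cells. Heyl fell in culture (-3.39 ± 0.31, adjusted p = 8.64e-05), with 0.22 ± 0.31 at 2 weeks and 0.19 ± 0.31 at 4 weeks (adjusted p 0.823 and 0.827). The target Hes1 fell by 1.39 ± 0.17 on the log2 scale in culture. After CCl4 Hes1 was lower too, at 8.87 and 8.65 at 2 weeks and 8.77 and 8.75 at 4 weeks, against 9.73 and 9.29 in quiescent cells. Hey2 had means of 5.84 at 2 weeks, 5.57 at 4 weeks and 7.05 in quiescent cells. Means of Hey1 went the other way, at 7.88, 7.40 and 6.94, but Hey1 was not called higher at either CCl4 time. In culture the means were 5.78 for Hey1 and 6.56 for Hey2. Notch3, the receptor of mural cells, rose at 4 weeks (0.86 ± 0.17, adjusted p = 0.0174). Notch1 and Dll4 are also expressed by endothelial cells, whose markers fell in the same comparisons. The part of endothelial cells in the Notch differences was not tested.

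Other biliary genes moved both ways. Of 21 measured, 3 rose and 5 fell in culture, beside 12.9% and 10.3% of all genes. At 2 weeks 2 rose and 2 fell, beside 4.77% of all genes called in either direction. At 4 weeks 3 rose and 3 fell, beside 4.04% and 4.67%. The medians were -0.09, 0.01 and -0.14. Cd24a, a surface glycoprotein gene of many progenitor cells, rose in culture to 9.94 and 10.20, against 6.65 and 6.66 in quiescent cells (3.41 ± 0.24, adjusted p = 1.86e-05). Aqp1, a water channel of bile duct and endothelial cells, fell by 4.49 ± 0.36, 1.56 ± 0.36 and 2.42 ± 0.36 on the log2 scale in culture and at 2 and 4 weeks. Bicc1, an RNA-binding protein gene, fell in culture (-1.26 ± 0.20) and rose at 2 weeks (1.0 ± 0.20) and 4 weeks (1.16 ± 0.20). The 10 biliary genes above the guide on any array include several, such as Aqp1 and Bicc1, that other liver cells express too.

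Among 35 genes of epithelial junctions and the epithelial programme, 5 rose and 2 fell in culture, beside 12.9% and 10.3% of all genes. At 2 weeks 0 rose and 1 fell, beside 4.77% of all genes called in either direction. At 4 weeks 0 rose and 2 fell, beside 4.04% and 4.67%. The medians were -0.09, -0.05 and -0.10. Pkp2, plakophilin 2 of desmosomes, rose in culture to 7.94 and 7.67, against 4.63 and 4.85 in quiescent cells (3.07 ± 0.17, adjusted p = 6.71e-06). The splicing factor gene Esrp2 (1.39 ± 0.18) and the claudin gene Cldn12 (1.65 ± 0.21) also rose, whereas Jup, plakoglobin, fell (-1.48 ± 0.21). Grhl2, Esrp1 and Ocln, regulators or parts of epithelial junctions, were among the 11 that stayed at or under the guide on all arrays.

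Filament genes of mesenchymal and neural cells gave 3 rises and 1 fall among 5 in culture, 0 and 1 at 2 weeks, and 2 and 0 at 4 weeks, with medians of 0.62, 0.06 and 0.31. Vim, vimentin, stood at 12.11 and 12.06 in culture, 12.10 and 12.17 after 2 weeks of CCl4, 12.13 and 12.15 after 4 weeks, and 11.25 and 11.68 in quiescent cells. Vim rose in culture (0.62 ± 0.16, adjusted p = 0.0235). After 4 weeks of CCl4 it also rose (0.68 ± 0.16, adjusted p = 0.0357), and the 2-week difference was 0.68 ± 0.16 (adjusted p = 0.0532). A dimmer Vim probe set was fitted in limma over all probe sets with a single symbol. It was called in culture (0.92 ± 0.19, adjusted p = 0.0074) but not at 4 weeks (0.69 ± 0.19, adjusted p = 0.0569). Nes, nestin, rose by 3.44 ± 0.54 in culture and by 2.46 ± 0.54 at 4 weeks, and its quiescent arrays stood far apart at 4.84 and 6.97. Gfap fell in culture (-0.67 ± 0.20), and at least 1.80-fold at 2 weeks.

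The remaining marker lists were set beside these values. Of the 15 stellate markers 13 fell and 0 rose in culture, 6 fell and 1 rose at 2 weeks and 7 fell and 1 rose at 4 weeks, with medians of -3.76, -0.66 and -0.60. Of 14 macrophage markers 12 fell and 1 rose in culture, 1 fell and 2 rose at 2 weeks and 10 fell and 0 rose at 4 weeks, with medians of -1.24, -0.09 and -1.57.

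Genes with profiles nearest to each called member were found by the root mean square difference of centred log2 values over the 8 arrays, among 22173 genes. Nearest to Krt8 were Slc26a10, Casp12 and Elovl2 (0.14, 0.16 and 0.17 log2 units), the last a fatty acid elongase. Nearest to Krt18 were Tnfsf9, Mylip and Apoc2 (0.24, 0.28 and 0.29), the last an apolipoprotein. The keratin pair differed from each other by 0.65. Nearest to Krt19 were Prdx4, Mea1 and Polr2g (0.07, 0.07 and 0.08), to Sox9 were Son, Slc41a1 and Bmp2k (0.07, 0.07 and 0.08), and to Cdh1 were Urad, Bnip5 and Mbnl1 (0.05, 0.07 and 0.09). Sox9 and Cdh1 differed from each other by 0.19, the smallest value between any 2 of the 7 genes. The values were centred but not scaled, so genes that change little lie near one another whatever their pattern. Epcam, under the guide on all arrays, differed from Cdh1 by 0.22 and from Sox9 by 0.26.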

How the data were processed

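The authors deposited log2 values of 8 arrays. The submitters' processing notes name RMA and Affymetrix Expression Console, without versions. RMA quantile normalizes the arrays together, so each value is relative to the others. RNA was preamplified before labelling, per the labels' protocols. The platform table gave 1 symbol to 23521 of 41345 probe sets, and the brightest on average stood for each of 22180 genes. Differences were fitted in limma 3.58.1 (R 4.3.3) with lmFit and eBayes, in a fit that held every array, with 4 residual and 4.75 prior degrees of freedom, and p-values were two-sided and Benjamini-Hochberg adjusted over all genes of each of 5 comparisons. The script was tested on simulated data. With 2 arrays a group, exact permutation p-values start at 0.333, so none was used. For arrays, their number limits the precision.

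The members and the lists were chosen with earlier results of these data known. The lists held other biliary, epithelial junction, Cdh1 repressor, filament, Notch, SOX and keratin genes, and markers of hepatocytes, mesothelial, sinusoidal endothelial, macrophage and stellate cells. Named were the members, up to 4 genes of smallest p per list and comparison, and the 3 genes of nearest profile to each member called against quiescent cells. Biliary, junction and mesothelial genes named for a level at or under the guide were chosen after their values were seen, as were Hey1 and Hey2. Alternatives were the mean of all probe sets, a filter at the receptor guide, eBayes with trend and robust options, only the groups compared, median centring, the replicate number as a block, and leaving out each array. Promoter windows come from RefSeq, GRCm38.p6.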

Additional observations from a re-analysis of the deposited data

How the results depend on the processing

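The falls of Krt8 and Krt18 and the rise of Krt19 in culture kept direction and call under all alternatives run, with differences of -1.88 to -1.58, -3.54 to -2.88 and 0.86 to 1.22 when 1 array was left out. The count of members called in culture against quiescent cells, 5, became 3 with only the groups compared, in a fit of fewer arrays, and ran from 3 to 4 with 1 array left out. It ran from 1 to 2 at 4 weeks of CCl4 and from 2 to 5 in culture against CCl4. At 2 weeks and between the CCl4 times it was 0 under every alternative. The replicate numbers did not pair the samples (correlations of deviations between groups -0.042 to 0.074 over genes). With the replicate block, 4 members were called in culture against quiescent cells and 4 against CCl4, Sox9 being lost from both, and no other member's call changed.

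Sox9 also lost its call in culture with the trend and robust options (adjusted p = 0.0545) and with only the groups compared (0.0943), and against CCl4 with trend and robust (0.0601) and median centring (0.0718). Cdh1 lost its call in culture with only the groups compared (0.057). The causes were not tested.

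The sign turned for differences that were not called. For Cdh1 at 4 weeks, the mean of all probe sets gave -0.35 and median centring -0.01, and at 4 against 2 weeks the mean of probe sets gave -0.03. For Epcam in culture against CCl4, median centring gave 0.06. With 1 array left out, Krt7 ran from -0.03 to 0.30 in culture, -0.55 to 0.03 at 2 weeks, -0.27 to 0.06 at 4 weeks and -0.13 to 0.44 between the CCl4 times. Epcam ran from -0.16 to 0.00 in culture, -0.18 to 0.02 at 2 weeks, -0.07 to 0.12 between the times and -0.09 to 0.07 in culture against CCl4. Krt19 ran from -0.20 to 0.15, -0.35 to 0.01 and -0.30 to 0.01 at 2 weeks, at 4 weeks and between the times, Sox9 from -0.28 to 0.14, -0.30 to 0.12 and -0.10 to 0.07, and Cdh1 from -0.06 to 0.13 at 4 weeks. The filter on dim genes left out Epcam, so 6 of 7 members passed it.

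Counts over all genes moved by over 1.5 times in places. With only the groups compared, 372 genes were called at 2 weeks (1058 with all arrays), 1205 at 4 weeks (1932) and 82 between the times (19), where the replicate block gave 9. With 1 array left out the counts ran from 260 to 1430 at 2 weeks, 652 to 2113 at 4 weeks, 0 to 85 between the times and 2846 to 5225 in culture against CCl4.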
